A study of Homo sapiens with 6 samples.

Results

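The genes described here encode the machinery that places peptides on MHC class I molecules at the cell surface. They are 4 heavy chain genes (HLA-B, HLA-C, HLA-E and HLA-F), the light chain B2M, both subunits of the peptide transporter (TAP1 and TAP2), the loading chaperone tapasin (TAPBP) and the transactivator NLRC5. These 9 genes were chosen by name from the 21776 genes of a deposited count table, by a rule that uses no measured value, although earlier results of these data were known when the rule was written. Of the remaining class I heavy chain genes, HLA-G is given beside them and others were not analysed here.

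The cells were SCC25, an established human oral squamous cell carcinoma line labelled as wild type. Cells labelled as hypoxic were kept for 12 h in a tri-gas incubator at 1% O2 with 5% CO2 and nitrogen, and normoxic cells in air with 5% CO2. Each condition had 3 libraries made from total RNA. Hypoxia libraries 1 to 3 held 30186813, 36076088 and 32272716 counted reads, and normoxia libraries 1 to 3 held 37278703, 29637189 and 29981208. No label says that the libraries came from separate cultures, so the p-values measure the spread between these libraries, which may be technical. Both groups are a single cell line, and the labels name no immune cells and no added interferon, which limits the line as a model of antigen presentation in a tumor.

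MHC class I molecules show samples of a cell's own proteins to CD8+ T cells. Proteasomes cut proteins into peptides, TAP1 and TAP2 together carry these into the endoplasmic reticulum, tapasin holds the empty heavy chain and B2M at the transporter, and the loaded complex moves to the surface. HLA-B and HLA-C are classical, highly variable heavy chains, HLA-E presents a narrow set of peptides to receptors on natural killer cells, and HLA-F is a nonclassical heavy chain with low surface expression in most cells. Interferon, NF-kB and NLRC5 are the best known inputs to the promoters of this family, and tumors often lower it to escape T cells.

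The promoters are shown first because the letters that these inputs are known to use lie close together in them. RefSeq promoter entries on GRCh38.p14, each 300 bases long from 250 bases before the transcription start, were held for 7 of the 9 genes, and none was held for HLA-E and NLRC5. Each line below is written 5′ to 3′ in the direction of the gene, and capitals mark matches to the kappa B motif, the interferon-stimulated response element, and the paired X2 and Y boxes through which NLRC5 complexes are known to act. The HLA-F stretch covers about the same distances from the start as those of HLA-B and HLA-C.
HLA-B, chr6:31357240-31357366, minus strand: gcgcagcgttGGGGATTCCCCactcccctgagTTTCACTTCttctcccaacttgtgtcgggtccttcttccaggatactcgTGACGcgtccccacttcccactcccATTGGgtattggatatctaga
HLA-C, chr6:31272153-31272274, minus strand: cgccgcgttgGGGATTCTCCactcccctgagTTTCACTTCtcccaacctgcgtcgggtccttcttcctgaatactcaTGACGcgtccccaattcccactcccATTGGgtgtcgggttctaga
HLA-F, chr6:29723268-29723373, plus strand: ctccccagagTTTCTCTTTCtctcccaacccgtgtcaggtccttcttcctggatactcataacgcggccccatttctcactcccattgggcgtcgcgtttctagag
B2M, chr15:44711363-44711482, plus strand: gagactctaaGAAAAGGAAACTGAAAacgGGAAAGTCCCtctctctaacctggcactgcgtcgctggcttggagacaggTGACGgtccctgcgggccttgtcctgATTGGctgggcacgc
TAP1, chr6:32853690-32853848, minus strand: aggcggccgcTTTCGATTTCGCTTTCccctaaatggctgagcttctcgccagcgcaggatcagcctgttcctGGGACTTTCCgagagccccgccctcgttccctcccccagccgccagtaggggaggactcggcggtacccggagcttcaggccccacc
TAP2, chr6:32838778-32838812, minus strand: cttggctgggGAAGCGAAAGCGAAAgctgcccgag
TAPBP, chr6:33314073-33314144, minus strand: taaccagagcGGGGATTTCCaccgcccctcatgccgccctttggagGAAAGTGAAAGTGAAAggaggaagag
The interferon-stimulated response element was searched on both strands as GAAA or GAA, then any 2 bases, then GAAA, forms that can overlap, and it was present in a promoter of all 7 genes, where 10.6% of the 35116 promoters in the table hold it. TAP1 has 2 entries, of which the one not printed held only hypoxia response element matches. The kappa B motif was found in HLA-B, HLA-C, B2M, TAP1 and TAPBP, against 11.3% of all promoters. The X2 box TGACG followed after 20 or 21 bases by the Y box ATTGG occurred in HLA-B, HLA-C and B2M, against 0.151% of all promoters, or 53 of them. HLA-F and TAP1 held a Y box without that pairing, and 34.6% of all promoters hold a Y box. In HLA-F it lay at -82 to -78 from the start, beside -81 to -77 for the paired one of HLA-B. The core of the hypoxia response element, ACGTG or GCGTG on either strand, was found in HLA-B, HLA-F, B2M and TAP1, and 48.4% of all promoters hold it. The motif forms and the spacing of the boxes were chosen after the sequences had been seen, so these shares describe the windows and were not tested, and a match is not evidence that a factor binds there.

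**Figure D1:**
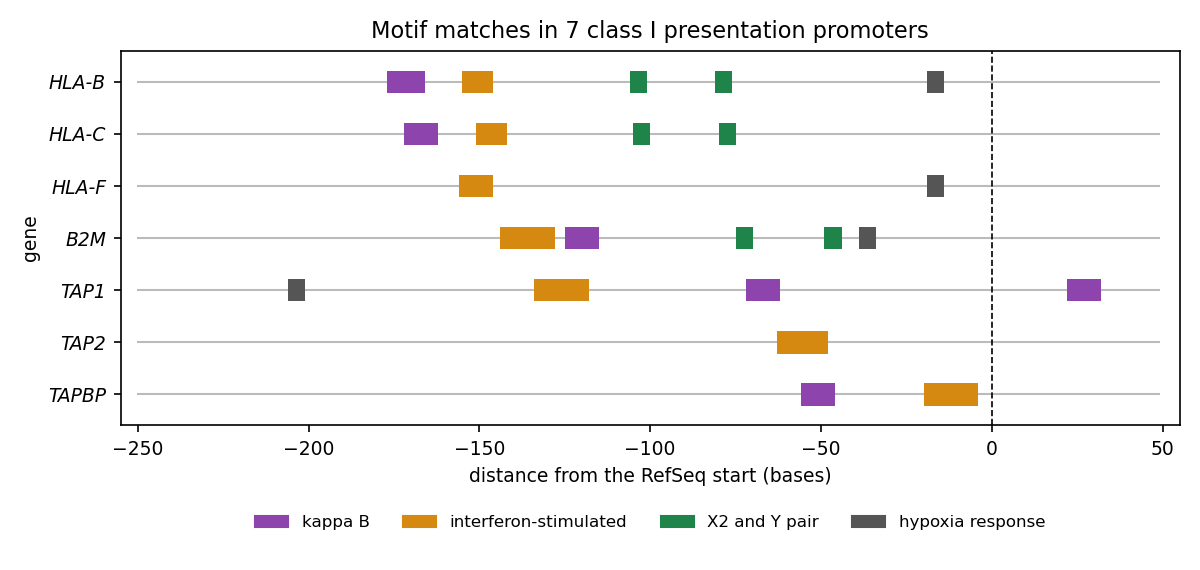
Positions of motif matches in the 7 class I presentation promoters with a RefSeq entry (1 row per gene), as distance from the RefSeq start in bases (x axis). In HLA-B and HLA-C the kappa B, interferon-stimulated and X2 and Y matches follow in the same order, and TAP2 holds only the interferon-stimulated match; for TAP1 the window of its first listed start is drawn.

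The labels were checked on known targets of oxygen sensing. All 5 genes of that list rose under hypoxia (median log2-fold change 3.04), and CA9, a carbonic anhydrase induced by low oxygen, was at 261.8, 277.2 and 292.6 CPM (normalized counts per 1000000 reads, the library totals being adjusted by TMM) under hypoxia and at 32.19, 27.29 and 67.67 CPM under normoxia, in the order of the replicates 1 to 3. Normoxia replicate 3 stood apart from the other normoxic libraries in this list, with a summed level of 708.7 CPM against 399.3 and 357.1 CPM, while the hypoxic libraries held 11207, 12997 and 13138 CPM. The same library was the normoxic one nearest to the hypoxic libraries for 6 of the 7 class I genes called below, HLA-E being the exception. Without it, 6 of the 9 genes were again higher and 1 lower, with log2-fold changes of 0.69 for HLA-B, 0.50 for HLA-C, 0.91 for HLA-E, 1.74 for HLA-F, 0.60 for B2M, 0.85 for TAPBP, -1.34 for TAP2, -0.12 for TAP1 and -0.11 for NLRC5.

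Under hypoxia all 4 heavy chains and B2M were higher, tapasin was higher, TAP2 was lower by more than 2-fold, and neither TAP1 nor NLRC5 passed the test. The largest increase was that of HLA-F, the least abundant heavy chain, and the smallest called increase was that of HLA-C. Counts were compared with edgeR's quasi-likelihood F test over the 14255 genes that passed its filter on low counts, and p-values were Benjamini-Hochberg adjusted over all of them. All 9 genes passed that filter. Of these, 6 were higher and 1 was lower at an adjusted p under 0.05, where 39.2% of all tested genes were higher and 38.5% were lower. Taken in either direction, 7 of the 9 genes were called, which is 77.8% and the same as the 77.8% of all tested genes. The conditions did not overlap for 7 of the 9 genes, against 80.5% of all tested genes. The share of genes called was therefore no distinction of these genes. The median log2-fold change was 0.60 over the 9 genes and 0.023 over all genes tested.

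Both classical heavy chains rose, HLA-B by more than HLA-C, a difference that was not tested directly. HLA-B (Entrez 3106) was at 536.6, 564.3 and 596.2 CPM under hypoxia and at 346.2, 347.1 and 390.1 CPM under normoxia, again in the order of the replicates. All hypoxic libraries lay above all normoxic ones, by 1.57-fold (log2-fold change 0.65, SE 0.0588, edgeR adjusted p = 1.86e-08). HLA-C (Entrez 3107) was at 580.5, 602.5 and 609.9 CPM under hypoxia and 418.1, 419.4 and 431.7 CPM under normoxia. The libraries of each condition lay close together and the conditions were apart, with a 1.41-fold increase (log2-fold change 0.50, SE 0.0487, edgeR adjusted p = 4.90e-08).

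The nonclassical heavy chains had larger log2-fold changes, a difference that was not tested directly. HLA-E (Entrez 3133) measured 191.1, 207.2 and 195.2 CPM under hypoxia against 105.5, 102.3 and 101.8 CPM under normoxia. This was a 1.92-fold increase without overlap (log2-fold change 0.94, SE 0.0531, edgeR adjusted p = 3.80e-11). HLA-F (Entrez 3134) went from 11.13, 10.41 and 11.36 CPM in the normoxic libraries to 36.09, 36.75 and 36.27 CPM in the hypoxic ones. Its 3.31-fold rise (log2-fold change 1.73, SE 0.0800, edgeR adjusted p = 3.27e-12) was exceeded by 10.8% of the genes tested.

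Reads of HLA-F could in part belong to its neighbour on the other strand, since the sources used here do not say whether counting used the strand. In GENCODE v29, HLA-F shares exonic bases with 3 gene models on the opposite strand, 701 with AL645939.1, 535 with HLA-F-AS1, an antisense RNA gene, and 257 with RPL23AP1. HLA-B likewise shares 542 with AL671883.2, and of these 4 models only HLA-F-AS1 has a row among the counts. HLA-F-AS1 had 347, 525 and 446 counts under hypoxia and 76, 50 and 87 under normoxia, a log2-fold change of 2.55. HLA-F itself had 1102, 1367 and 1177 counts under hypoxia and 414, 298 and 336 under normoxia. The antisense gene thus moved in the same direction with fewer reads, and without strand the reads of the pair cannot be told apart.

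Heavy chain genes resemble each other, so reads can be divided between them. Of the 50-base stretches in the GENCODE v29 coding transcripts of each gene, 1.84% for HLA-B, 3.42% for HLA-C, 1.41% for HLA-E and 0.669% for HLA-F also occurred in another of the 4, and no stretch of 100 bases did. When the counts of the 4 genes were summed into 1 row, the sum rose with a log2-fold change of 0.64 (SE 0.0512, edgeR adjusted p = 3.59e-09). HLA-G, a further nonclassical heavy chain, had at most 3 counts in every library, and adding it left the value at 0.64. Heavy chain alleles differ between people, and how well those of SCC25 match the genome used in counting was not tested.

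The light chain rose about as much as the summed heavy chains, whose log2-fold change was 0.64. B2M (Entrez 567) is beta-2-microglobulin, which class I heavy chains generally need to reach the surface. It was at 1335, 1284 and 1395 CPM under hypoxia and 844.3, 901.3 and 906.8 CPM under normoxia. The conditions were apart, with a 1.51-fold increase (log2-fold change 0.60, SE 0.0525, edgeR adjusted p = 1.22e-08). The log2 ratio of summed heavy chain FPKM (deposited fragments per kilobase of gene, scaled to the library total) to B2M FPKM was 0.819 ± 0.0631 (SD, n = 3) under hypoxia and 0.814 ± 0.0518 (SD, n = 3) under normoxia. That difference of 0.0045 was smaller than the spread between libraries (two-sided exact permutation test, p = 0.9, Benjamini-Hochberg adjusted p = 0.9 over the 6 shares and ratios tested). The smallest p of that permutation test is 0.1 here, so it could not have called a difference of any size.

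**Figure D2:**
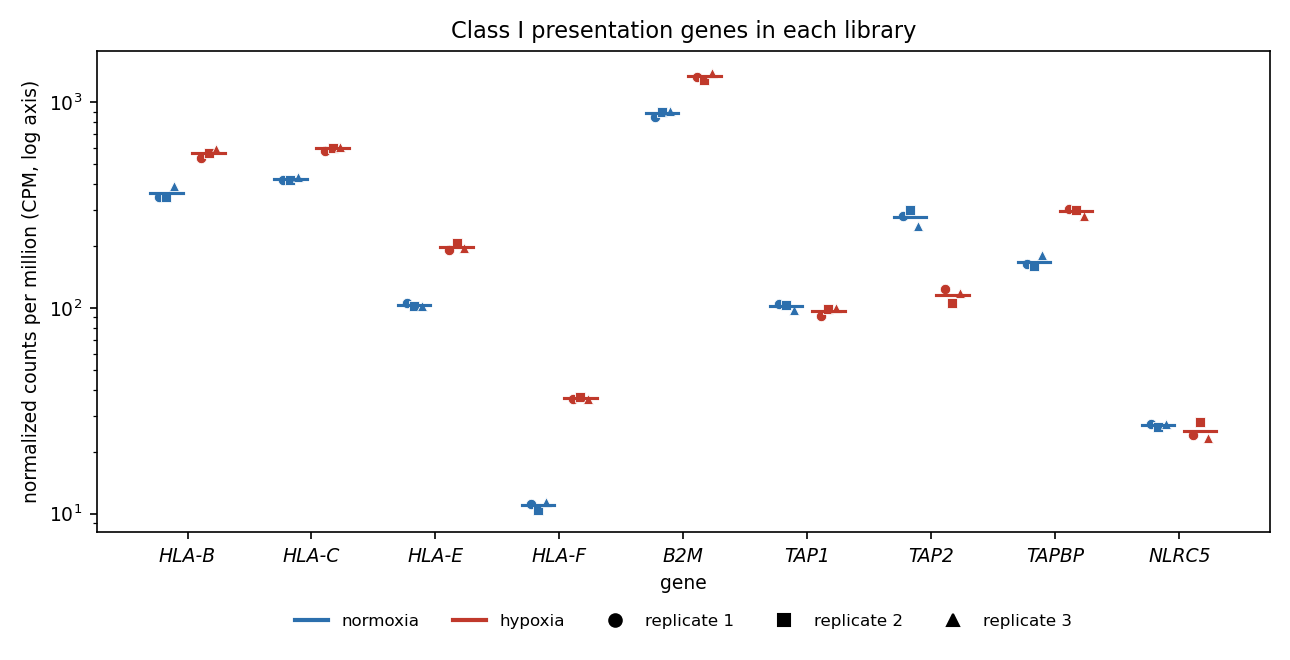
Normalized counts (CPM, y axis, log scale) of the 9 class I presentation genes in each of the 3 normoxic and 3 hypoxic libraries, with bars at the mean of each condition and symbols for the replicates. HLA-B, HLA-C, HLA-E, HLA-F, B2M and TAPBP lie higher in all hypoxic libraries, TAP2 lies lower in all of them, and TAP1 and NLRC5 overlap.

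The peptide transporter and its chaperone moved apart. TAP1 (Entrez 6890), which pairs with TAP2 to form the working transporter, was at 91.28, 99.32 and 100.3 CPM under hypoxia and 104.6, 103.2 and 97.52 CPM under normoxia. The conditions overlapped, and the log2-fold change of -0.07 had a 95% interval from -0.18 to 0.041 (SE 0.0566, edgeR adjusted p = 0.267). TAP2 (Entrez 6891) was at 124.3, 106.3 and 117.7 CPM under hypoxia against 280.8, 299.7 and 249.4 CPM under normoxia. Hypoxic libraries held 41.9% of the normoxic level with no overlap (log2-fold change -1.25, SE 0.0703, edgeR adjusted p = 3.37e-11), and 6.03% of the genes tested fell further. TAPBP (Entrez 6892), tapasin, measured 302.0, 300.7 and 281.3 CPM under hypoxia and 163.3, 159.7 and 181.4 CPM under normoxia. It rose 1.75-fold, again without overlap (log2-fold change 0.81, SE 0.0580, edgeR adjusted p = 8.02e-10).

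The balance of the transporter subunits differed between the conditions. The log2 ratio of TAP1 to TAP2 FPKM was 0.659, 1.01 and 0.874 in the hypoxic libraries and -0.320, -0.434 and -0.251 in the normoxic libraries. The side of 0 on which these ratios lie depends on the deposited lengths (2852 bases for TAP1 and 6131 for TAP2), and in CPM, not scaled by length, the mean of TAP1 was below that of TAP2 in both conditions (96.97 against 116.1 under hypoxia and 101.8 against 276.6 under normoxia). The difference of 1.18 on the log2 scale exceeded the spread between libraries, and its two-sided exact permutation p of 0.1 (adjusted p = 0.15) is the smallest that 3 libraries against 3 allow. The log2 ratio of tapasin to TAP2, chosen after the values were seen and not tested, was 1.97 ± 0.134 (SD, n = 3) under hypoxia and -0.091 ± 0.232 (SD, n = 3) under normoxia. In GENCODE v29, 2064 of the 6390 exonic bases of TAP2 are shared with AL669918.1 on the same strand, a gene model without a row among the counts, and TAP1 shares 456 exonic bases with PSMB8-AS1 on the opposite strand. PSMB8-AS1 had 82 to 161 counts per library (log2-fold change -0.39, edgeR adjusted p = 0.12), far fewer than TAP1.

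NLRC5 (Entrez 84166) is the transactivator that acts at the shared promoter boxes of class I genes, together with the factors assembled there, and is itself induced by interferon gamma. It was at 24.27, 27.77 and 23.39 CPM under hypoxia and 27.38, 26.28 and 27.28 CPM under normoxia. Hypoxia replicate 2 lay above every normoxic library and the other hypoxic libraries lay below them, so the conditions overlapped. The log2-fold change was -0.10 with a 95% interval from -0.26 to 0.058 (SE 0.0811, edgeR adjusted p = 0.265). Its relation to the heavy chains was not tested.

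Per length, as the deposited gene lengths set it, the order of the genes changed in a few places. Under normoxia the mean FPKM fell from B2M (305.5) to HLA-C (269.8) and HLA-B (231.3), whose ranges were separate. TAP2 (44.4 FPKM) and TAPBP (41.6 FPKM) followed with overlapping ranges, as did TAP1 (35.1 FPKM) and HLA-E (34.4 FPKM). NLRC5 (3.19 FPKM) was above HLA-F (1.87 FPKM), which came last. Under hypoxia B2M (477.6 FPKM) again led, and HLA-C (393.8 FPKM) and HLA-B (374.2 FPKM) now overlapped. TAPBP (75.3 FPKM) and HLA-E (68.2 FPKM), which overlapped, stood above TAP1 (34.5 FPKM) and TAP2 (19.2 FPKM). HLA-F (6.40 FPKM) had passed NLRC5 (3.07 FPKM). TAP2 thus went from the fourth place to the seventh, and HLA-F from the last to the eighth.

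Within the heavy chain pool, the shares of HLA-E and HLA-F were higher and that of HLA-C was lower in the hypoxic libraries. With 3 libraries against 3, no share test could pass an adjusted p of 0.05. Of the summed FPKM of the 4 heavy chains analysed here, HLA-E made up 8.10% ± 0.345 (SD, n = 3) under hypoxia and 6.42% ± 0.330 under normoxia, and HLA-F 0.760% ± 0.0254 and 0.348% ± 0.0118. HLA-C gave way from 50.2% ± 1.01 under normoxia to 46.7% ± 0.524 under hypoxia. For each of these 3 genes the libraries did not overlap (two-sided exact permutation p = 0.1, the smallest possible here, adjusted p = 0.15). HLA-B held 44.4% ± 0.818 under hypoxia and 43.0% ± 1.32 under normoxia, with overlap (exact permutation p = 0.3, adjusted p = 0.36), and its difference of 1.40 percentage points became 2.16 without normoxia replicate 3 and 0.930 without hypoxia replicate 3. From counts in place of FPKM, which weight long genes more, the share of HLA-F was higher under hypoxia by 1.38 percentage points in place of 0.413, that of HLA-E by 2.66 in place of 1.68 and that of HLA-B by 0.298 in place of 1.40. The log2 FPKM ratio of HLA-F to HLA-C, chosen after the values were seen and not tested, was -5.94 under hypoxia and -7.18 under normoxia. The levels of such ratios and shares rest on the deposited gene lengths (5774 bases for HLA-F and 1542 for HLA-C). For a ratio between single genes, the difference between the conditions does not rest on them. For the shares and the ratio of summed heavy chains to B2M it does, the latter being 0.0045 from FPKM and 0.040 from counts.

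The genes that make and trim the peptides were read from a list of 20, all of which were tested. Of these, 8 were higher, 8 were lower and 4 did not pass the test, with a median log2-fold change of -0.034. Those are 40% in each direction, near the 39.2% and 38.5% of all tested genes, so the split of the list is no result about it, and its groups are described by their values. All 3 constitutive catalytic subunits of the proteasome fell, PSMB5 with a log2-fold change of -0.90, PSMB6 of -0.76 and PSMB7 of -0.76. Of the interferon-inducible subunits that can take their places, PSMB9 rose from 32.92, 35.30 and 37.82 CPM under normoxia to 58.89, 53.26 and 57.57 CPM under hypoxia (log2-fold change 0.68, edgeR adjusted p = 7.01e-08). PSMB10 rose by 0.23 (edgeR adjusted p = 0.0172), and PSMB8 overlapped between the conditions at 0.08 (edgeR adjusted p = 0.222). The proteasome activator subunit PSME1 was higher (0.60) and its partner PSME2 slightly lower (-0.16, edgeR adjusted p = 0.0188).

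Each inducible subunit therefore gained on its constitutive counterpart. The log2 FPKM ratio of PSMB9 to PSMB6 was -1.08 ± 0.0212 (SD, n = 3) under hypoxia and -2.52 ± 0.121 (SD, n = 3) under normoxia, a difference of 1.44. For PSMB8 to PSMB5 the difference was 0.98 and for PSMB10 to PSMB7 it was 1.00. With the deposited lengths, the FPKM of PSMB6 was 5.74 times that of PSMB9 under normoxia and 2.11 times under hypoxia. These pairs were chosen after the values were seen and were not tested, and no library of one condition overlapped with the other in any of them.

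Of the 6 peptidases that trim or destroy peptides, 3 rose and 3 fell, where 39.2% of all tested genes were higher and 38.5% lower. The aminopeptidases of the endoplasmic reticulum, ERAP1 and ERAP2, which cut peptides to the length that class I binds, rose by 0.50 and 0.65 on the log2 scale. THOP1, a cytosolic peptidase that destroys such peptides, was at 76.01, 70.49 and 79.48 CPM under hypoxia and 147.9, 148.2 and 138.2 CPM under normoxia. That was the largest decrease of the list (log2-fold change -0.94, edgeR adjusted p = 1.22e-10). TPP2, another cytosolic peptidase, had a log2-fold change of -0.46, LNPEP had one of 0.16 (edgeR adjusted p = 0.0226), and NRDC one of -0.12 (edgeR adjusted p = 0.0488), close to the threshold.

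In the endoplasmic reticulum, the loading genes did not move together. TAPBPL, a relative of tapasin that edits peptides, rose by 0.79 (edgeR adjusted p = 1.53e-05), from 8.142, 6.815 and 9.397 CPM to 13.13, 14.28 and 14.58 CPM. PDIA3, the disulfide isomerase bound to tapasin, rose by 0.26 (edgeR adjusted p = 0.000106). HSPA5, the general chaperone BiP, was lower, with a log2-fold change of -0.61. CALR, calreticulin, had a log2-fold change of -0.07 (edgeR adjusted p = 0.192), and CANX and UGGT1 also did not pass the test. In the Reactome term for folding, assembly and peptide loading of class I in the deposited annotation, chosen after the values were seen, 14 of 28 tested genes were higher and 10 were lower, with a median of 0.13. A wider term carried by the same 8 of the 9 genes described here, the ER-phagosome pathway, had 17 of 81 tested genes higher and 52 lower, with a median of -0.50, beside the 39.2% and 38.5% of all tested genes. Interferon gamma signaling, carried by 5 of the 9 genes, had 38 of 67 tested genes higher and 18 lower, with a median of 0.46. The endosomal and vacuolar pathway, also carried by 5, had 8 of 10 higher and 1 lower, with a median of 0.55. None of these terms was tested as a set.

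**Figure D3:**
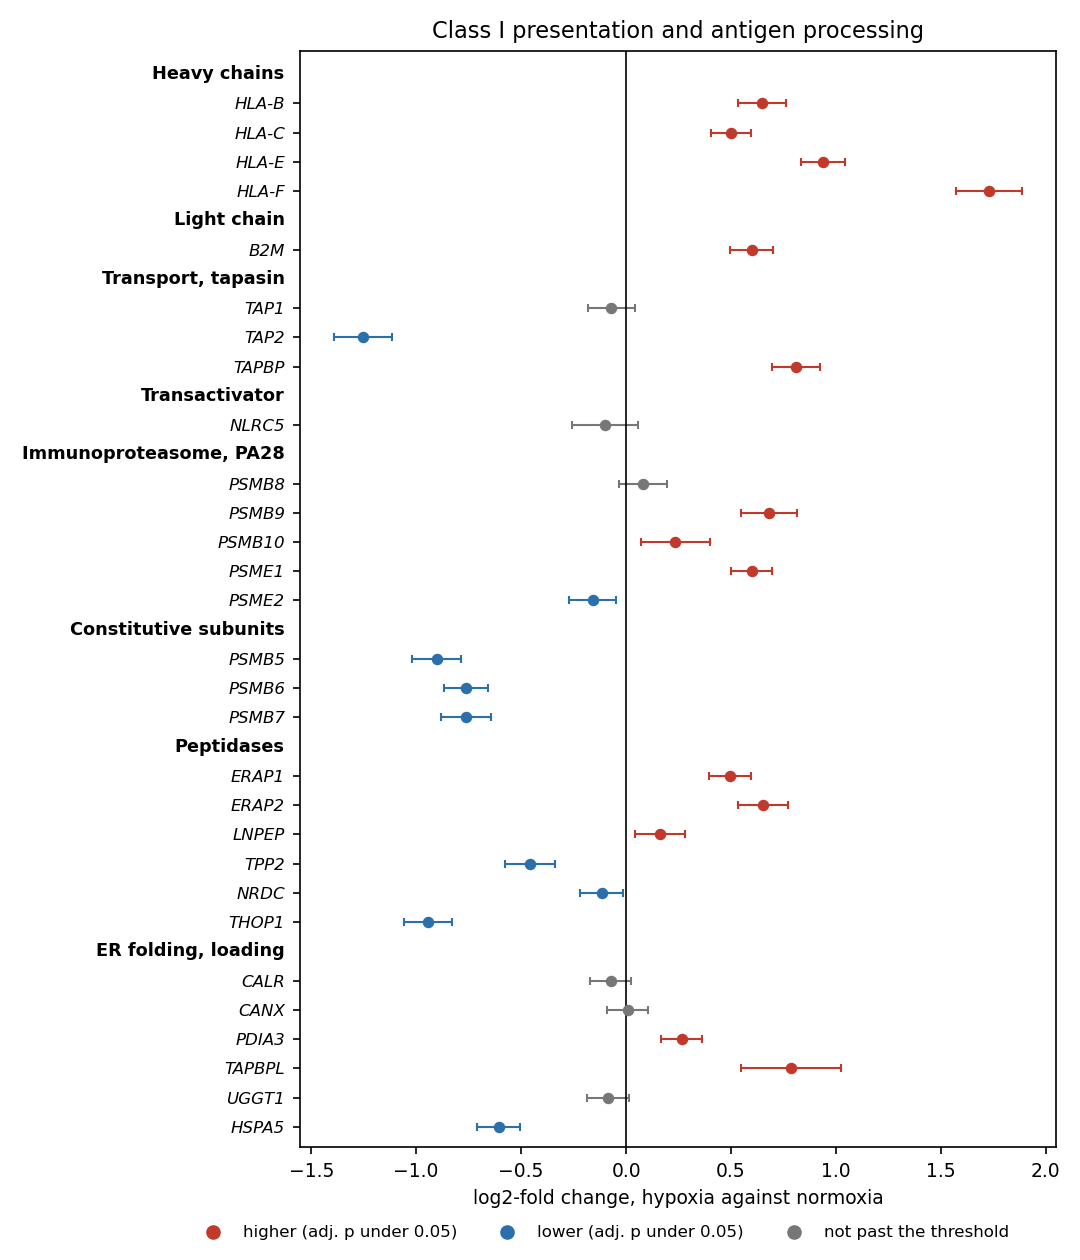
Log2-fold changes, hypoxia against normoxia (x axis), with 95% intervals from edgeR over 6 libraries, for the 9 class I presentation genes and 20 genes of antigen processing, grouped by role and coloured by call at an adjusted p under 0.05. Heavy chains, B2M and tapasin lie to the right, while TAP2 and the 3 constitutive proteasome subunits lie to the left.

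Class I-like molecules share the fold of the heavy chains but bind other ligands or receptors. Of the 13 on the list, 11 were tested, of which 7 were higher, 2 were lower and 2 did not pass the test (median log2-fold change 0.53), where 39.2% of all tested genes were higher and 38.5% lower. FCGRT, the neonatal Fc receptor, which pairs with B2M, rose from 2.123, 1.887 and 2.907 CPM to 9.334, 8.120 and 9.862 CPM (log2-fold change 1.98, edgeR adjusted p = 1.17e-08). MR1, which pairs with B2M and presents vitamin B metabolites, rose from 9.647, 9.890 and 12.95 CPM to 38.15, 37.67 and 39.54 CPM (log2-fold change 1.83, edgeR adjusted p = 2.41e-11). Both log2-fold changes exceeded the 1.73 of HLA-F, a difference that was not tested. Of the 8 ligands of the natural killer receptor NKG2D among them, 4 were higher, 2 were lower and 2 did not pass the test. ULBP1 (log2-fold change 1.91, edgeR adjusted p = 2.47e-05), RAET1G (1.47, edgeR adjusted p = 0.00109), ULBP2 (0.23, edgeR adjusted p = 0.0189) and MICA (0.16, edgeR adjusted p = 0.0388) rose, while ULBP3 (-1.07, edgeR adjusted p = 6.53e-07) and MICB (-0.42, edgeR adjusted p = 4.52e-05) fell.

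The known inputs to class I promoters were read from the 27 genes of a list that are reported here, of which 26 were tested. Of these, 10 were higher, 8 were lower and 8 did not pass the test, with a median of 0.061. Those are 38.5% and 30.8%, beside 39.2% and 38.5% of all tested genes, so the counts are no result about the list. Within interferon receptor signalling, 6 of the 10 tested genes reported here were higher, against 39.2% of all tested genes, and they include SOCS3 (0.87, edgeR adjusted p = 2.64e-08), a feedback inhibitor of that signalling. STAT2 rose from 20.58, 18.42 and 24.51 CPM to 54.95, 52.94 and 55.17 CPM (log2-fold change 1.36, edgeR adjusted p = 1.33e-10). IRF9, the partner of STAT2 that binds interferon-stimulated response elements, rose by 1.12 (edgeR adjusted p = 5.03e-06).

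Among the interferon regulatory factors, IRF7 was higher (0.98), as was IRF2 (0.73), and IRF3 was lower (-0.30). IRF1, an activator of class I and of TAP1, was at 57.02, 49.34 and 56.98 CPM under hypoxia and 55.52, 54.87 and 62.57 CPM under normoxia, with overlap (log2-fold change -0.08, edgeR adjusted p = 0.292). Of the 8 factors that assemble on the promoter boxes with NLRC5, 2 were higher and 5 were lower, where 39.2% of all tested genes were higher and 38.5% lower. RFXAP (-0.75), NFYB (-0.52) and NFYC (-0.46) fell, CREB1 (0.57) and RFXANK (0.41) rose, and RFX5 did not pass the test (0.07, edgeR adjusted p = 0.437). Of the 4 NF-kB genes, 0 were called higher and 2 lower, to be read beside the same background shares of all tested genes. RELA lay higher (0.08, edgeR adjusted p = 0.171) and NFKB2 lower (-0.12, edgeR adjusted p = 0.0517) in all hypoxic libraries without passing the test, RELB fell (-0.32, edgeR adjusted p = 0.0014), and NFKB1, the p50 precursor, fell from 152.6, 143.5 and 147.4 CPM to 85.71, 80.39 and 77.94 CPM (log2-fold change -0.86, edgeR adjusted p = 1.92e-10).

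Genes known to hold class I down were lower or did not pass the test. Of 7 tested, none was higher, 5 were lower and 2 did not pass the test, with a median log2-fold change of -0.40. The 3 core subunits of the Polycomb repressive complex that silences class I processing genes in some tumors all fell, EED with a log2-fold change of -0.85 (edgeR adjusted p = 7.28e-09), SUZ12 of -0.65 and EZH2 of -0.59. WWP2 (-0.40) and TMEM127 (-0.17), which act together in the turnover of class I molecules, were lower, while their partner SUSD6 did not pass the test. The background of 38.5% of genes lower applies here too, and the list was not tested as a set.

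**Figure D4:**
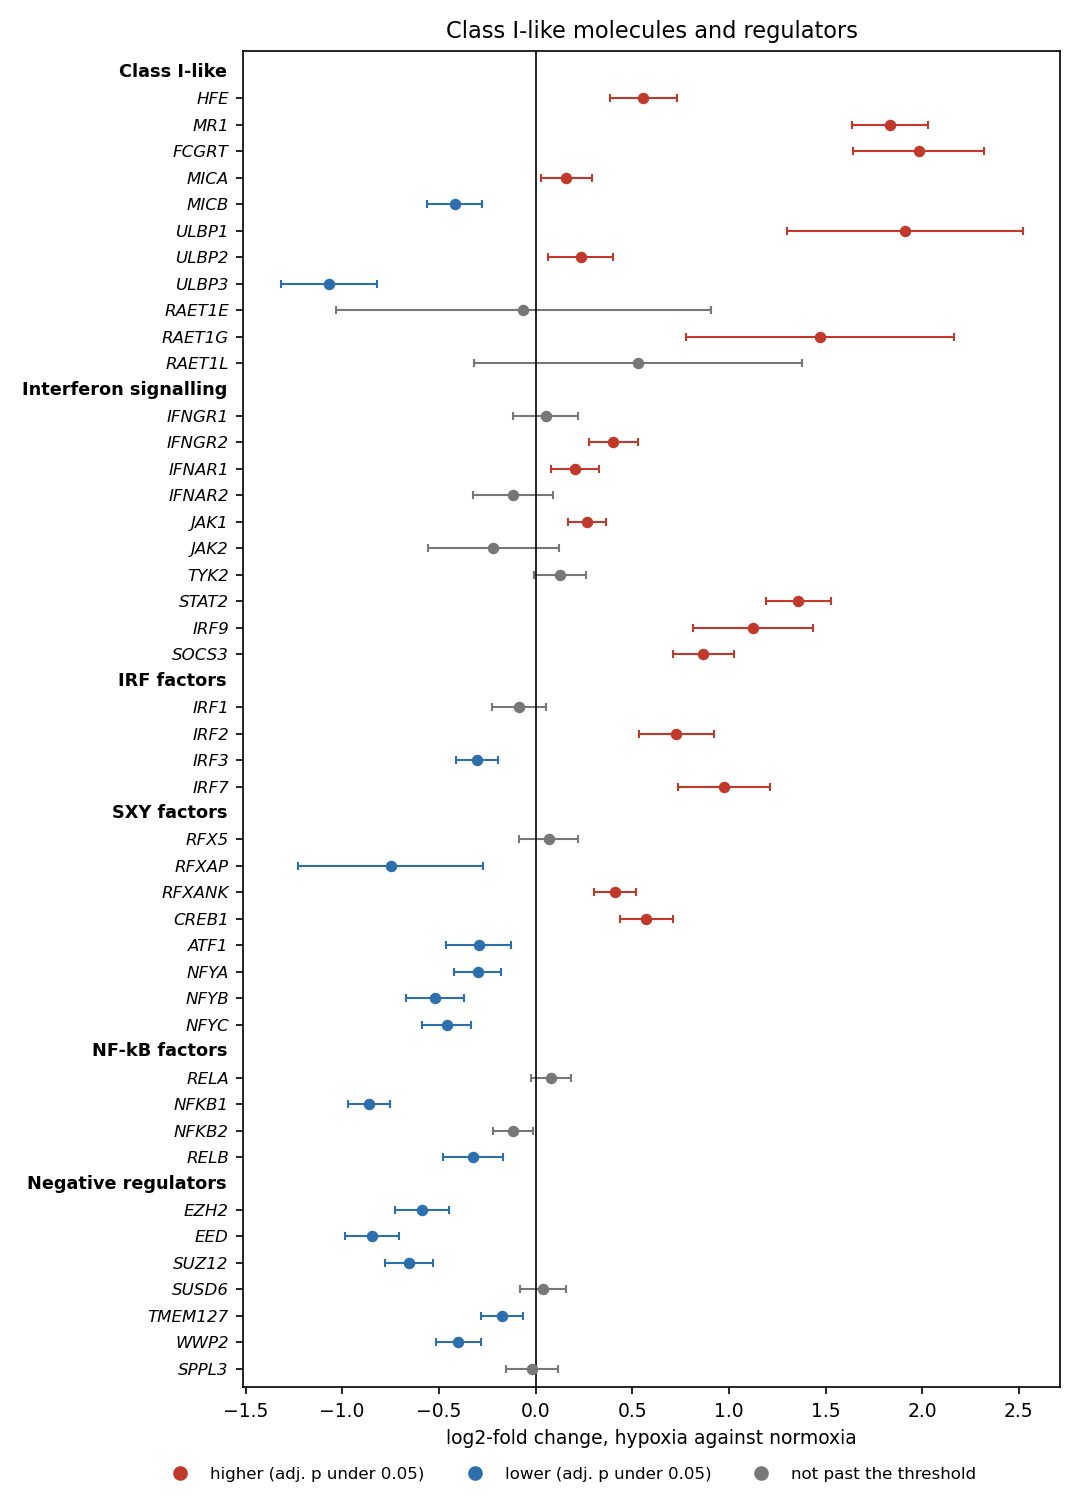
Log2-fold changes, hypoxia against normoxia (x axis), with 95% intervals from edgeR over 6 libraries, for tested class I-like molecules, regulators of class I promoters and negative regulators of class I, coloured by call at an adjusted p under 0.05. The negative regulators show 5 of 7 genes lower and none higher, and STAT2 and IRF9 lie to the right.

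The labelled cell type was checked against its markers. Of 6 squamous epithelial markers, KRT5, KRT17, TP63, CDH1 and EPCAM were tested and KRT14 was absent, with 1 count in a single library. CDH1 was the most abundant of them, and KRT17 and CDH1 were higher while KRT5 and EPCAM were lower under hypoxia. Of 8 markers of leukocytes and professional antigen-presenting cells, 6 had a row and their summed level was 6.55, 6.00 and 6.50 CPM under hypoxia and 0.941, 0.874 and 1.69 CPM under normoxia. CD14 was the most abundant of these and accounted for nearly all of that sum (log2-fold change 2.45, edgeR adjusted p = 7.27e-08), while PTPRC, which marks all leukocytes, had 2 counts in hypoxia replicate 3 and 0 in the other libraries. The fibroblast markers, all 6 with a row, summed to 22.1, 18.7 and 17.1 CPM under hypoxia and 4.03, 3.15 and 5.64 CPM under normoxia, almost all of it COL1A1 (log2-fold change 2.26), with COL3A1 at no more than 2 counts in any library. The 5 endothelial markers summed to 1.70, 1.32 and 1.60 CPM under hypoxia and 0.296, 0.315 and 0.744 CPM under normoxia, with CDH5 the most abundant and KDR at 0 in the normoxic libraries. These sums moved in the direction of the heavy chains, and their part in the result was not tested. In bulk RNA, more cells that express a gene and more RNA of it per cell cannot be told apart.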

How the data were processed

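RNA was sequenced from SCC25 cells under hypoxia (12 h) and normoxia, with 3 libraries each. The authors deposited a count table with the whole number of reads on each of 21776 genes, without normalization, and FPKM (fragments per kilobase of gene, scaled to the library total) of the same genes. For 21775 genes, all 9 members included, the deposited FPKM followed from the counts and the gene length. The aligner, the counting tool, the annotation and the strand setting are not given in the sources used here. The submitters' processing notes name only the mouse build GRCm38 (mm10), although the rows carry human symbols and Entrez numbers. The labels name SCC25, whereas the legend for the transcriptome in the study names SCC9. No other per-sample columns were left unused (0), and no columns of the authors' own comparisons were used.

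Conditions were compared on the counts in R 4.3.3 by edgeR 4.0.16 (TMM, filterByExpr, quasi-likelihood F test, condition as the only term, Benjamini-Hochberg adjustment at 0.05), since the study's methods state no test for these data. The SE is the log2-fold change divided by the square root of F. The 95% intervals apply the multiplier of a normal distribution to this SE, so they are somewhat narrower than the F test would give. The biological coefficient of variation was 0.0685, and replicate pairs differed by more than counting error (chi-square per gene 5.11 to 11.5), so none was treated as a duplicate. At 29637189 to 37278703 reads a library, a gene that never exceeds 3 counts in a condition has no measurable level in it. Shares and ratios within a library were taken from FPKM and tested by two-sided exact permutation tests, with adjustment over the 6 tested. Alternatives were DESeq2 size factors, the DESeq2 1.42.0 Wald test, other filters, blocking on the replicate number, removing 1 library at a time, a log2-fold change threshold of 1, counts in place of FPKM for the shares and ratios, and limma 3.58.1 on log2(FPKM + 1) or log2(FPKM + 0.1) with a mean of at least 1 FPKM or no filter. The tests were first tried on simulated data. Exon overlaps and shared stretches came from GENCODE v29.

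The members and lists were chosen with earlier results of these data known. Named were all 9 members, up to 3 called increases and 3 called decreases per list by log2-fold change with a mean of at least 1 CPM, IRF1, RFX5, PSMB8, PSMB9 and CALR. Other genes were named after their values were seen, to complete a group. One gene of the regulator list is not reported here, and the counts of that list leave it out.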

Additional observations from a re-analysis of the deposited data

How the results depend on the processing

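The edgeR calls on the 9 genes, 6 higher and 1 lower, kept their direction and their side of an adjusted p of 0.05 under DESeq2 size factors, the DESeq2 Wald test, both other filters, limma on FPKM and each library left out. Leaving out 1 library moved the log2-fold change of TAP2 between -1.34 and -1.20 and that of HLA-F between 1.69 and 1.74. Neither TAP1 (edgeR adjusted p 0.0676 to 0.614 with libraries left out) nor NLRC5 (0.0558 to 0.592) was called in any of these fits. With at least 10 counts in every library, a filter that moved the median of all shared genes by 0.077, the log2-fold change of TAP1 turned to 0.0077 (edgeR adjusted p = 0.901). With a log2-fold change beyond 1 also required, HLA-B (0.65), HLA-C (0.50), HLA-E (0.94), B2M (0.60) and TAPBP (0.81) no longer counted, which left 1 of the 9 genes higher and 1 lower. By this rule, 2840 genes of the table were higher and 1498 lower. The lists had 0 higher and 0 lower for antigen processing, 4 and 1 for class I-like molecules, and 2 and 0 for regulators. Negative regulators had 0 higher and 0 lower, and interferon-stimulated genes had 6 higher and 0 lower. Under the other alternatives, calls ranged from 6 to 9 higher and 6 to 8 lower for antigen processing, from 5 to 7 higher and 2 lower for class I-like molecules (5 or 6 higher with any library left out), from 9 to 12 and 7 to 9 for regulators, from 7 to 11 and 2 to 3 for interferon-stimulated genes, and from 4 to 5 lower for negative regulators. The class II genes called higher numbered 3 without a filter, 0 under the stricter filter of 10 counts and 2 with limma on FPKM without a filter, against 1.

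With counts in place of FPKM, which weight long genes more, the shares of the heavy chain pool moved by 0.298 percentage points for HLA-B, -4.34 for HLA-C, 2.66 for HLA-E and 1.38 for HLA-F, against 1.40, -3.49, 1.68 and 0.413 with FPKM. The difference in the ratio of heavy chains to B2M, 0.0045 with FPKM, was 0.040 with counts. It ranged from -0.030 to 0.032 over the libraries left out in turn and has no sign that the data fix.

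The replicate numbers did not pair the libraries, with correlations of the deviations of 0.018, -0.069 and 0.0012, and 1 of 6 libraries correlated best with its own number. With the replicate block, edgeR called 10875 genes against 11090, and the members were again 6 higher and 1 lower, TAP2 at -1.25 and HLA-F at 1.73.

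Limits are the single cell line and time point, the unknown strand and counting rules for overlapping and similar genes, and RNA as the only readout, so that protein and surface levels were not measured here.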

Other observations

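Interferon-stimulated genes, which are known to rise together with class I genes when interferon is present, moved in both directions under hypoxia. Of 22 on the list, 18 were tested with edgeR, of which 9 were higher, 3 were lower and 6 did not pass the test, with a median log2-fold change of 0.38, where 39.2% of all tested genes were higher and 38.5% lower. GBP2, a guanylate-binding protein, was at 412, 541 and 495 counts under hypoxia and 24, 8 and 34 under normoxia (log2-fold change 4.38, edgeR adjusted p = 2.17e-11). MX2 (2.42) and OAS1 (2.10), both antiviral effectors, rose as well. OAS3, the most abundant gene of the list, fell from 199.1, 206.0 and 204.8 CPM to 135.7, 127.7 and 132.8 CPM (log2-fold change -0.62, edgeR adjusted p = 4.82e-09), and MX1 (-0.35) and IFI44 (-0.27) were lower. The chemokine CXCL10, a common mark of interferon gamma signalling, had at most 1 count in every library.

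MHC class II genes, which professional antigen-presenting cells use and which CIITA, a relative of NLRC5, controls, were near the limit of detection. Of 12 on the list, 9 had a row and 3 were tested. HLA-DMA, a class II loading factor, had 62, 45 and 82 counts under hypoxia and 16, 11 and 8 under normoxia (log2-fold change 2.38, edgeR adjusted p = 2.29e-05). CIITA itself was at 15, 17 and 11 counts under hypoxia and 13, 7 and 7 under normoxia and did not pass the test (edgeR adjusted p = 0.244). HLA-DRA had at most 8 counts in any library, where the class I gene HLA-C had at least 12001.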
